A study of Rattus norvegicus with 8 samples.

Results

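Histones are the proteins around which DNA is wound, and their genes were examined here in rat dorsal spinal cord after treatment with a histone deacetylase inhibitor (HDACI). The array carried 32 probe sets for 24 histone genes, out of 29214 probe sets in all, of which 15310 had a single symbol and covered 14506 genes. A probe set was taken when the platform annotation gave it a single gene symbol that encodes a histone and begins with Hist1, Hist2, Hist3, Hist4, H1f, H2af, H2az, H2b, H3f, H3c or H4c. The rule itself used no measured value, though it was set with earlier results of these data known. A pair of probe sets of Hist2h3c2 held identical values on every array, so the 32 probe sets gave 31 distinct sets of values.

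All tissue came from adult male Wistar rats with transection of the L5 spinal nerve, and no uninjured animal was among the groups compared. In the HDACI group (n = 4 arrays), MS-275, an inhibitor of class I histone deacetylases, was given intrathecally by osmotic pump at 30 nmol/d. In the vehicle group (n = 4 arrays), the pump carried the solvent of the drug, dimethyl sulfoxide in saline. Dorsal cord of the injured side was taken at day 14, and its RNA was hybridized to Affymetrix Rat Gene 1.0 ST arrays. The arrays of a group were biological replicates, per the study's methods. The drug was not directed to one cell type, and the tissue holds neurons, glia, vessels and covering membranes together.

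Each nucleosome holds pairs of the core histones H2A, H2B, H3 and H4, and a linker histone, H1, binds where DNA enters and leaves it. Most core histone genes are replication dependent. They lie in clusters, they are transcribed in S phase to package newly copied DNA, and their mRNAs classically end in a stem loop in place of a poly(A) tail. Replacement variants such as H2A.Z and H3.3 are made outside S phase as well, from polyadenylated mRNAs, and are the main supply of new histone in cells that no longer divide, such as neurons. Acetylation of histone tails is the modification that histone deacetylases remove.

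The promoters of 5 member genes are shown because they belong to the genes on which the results below turn or represent the classes of the family. Each line gives the 150 bases before the annotated transcription start, 5′ to 3′ on the strand of the gene, from RefSeq for the GRCr8 assembly. Capitals mark the octamer ATTTGCAT, which is the element for Oct-1 in H2B promoters, the CCAAT box CCAAT, and the TATA box TATAAA, each searched on both strands. H2az1 encodes H2A.Z, Hist1h2ail1 a core H2A, Hist1h2bq a core H2B, H1f4 a linker histone and H3f3b the variant H3.3.
H2az1, chr2:229028945-229029094, + strand: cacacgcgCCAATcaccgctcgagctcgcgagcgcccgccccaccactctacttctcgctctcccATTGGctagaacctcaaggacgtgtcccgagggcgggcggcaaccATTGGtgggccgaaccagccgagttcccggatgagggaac
Hist1h2ail1, chr17:41997129-41997278, - strand: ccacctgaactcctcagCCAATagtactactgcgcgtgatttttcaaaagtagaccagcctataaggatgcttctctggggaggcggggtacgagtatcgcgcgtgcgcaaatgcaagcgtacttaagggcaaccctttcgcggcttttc
Hist1h2bq, chr17:41869342-41869491, - strand: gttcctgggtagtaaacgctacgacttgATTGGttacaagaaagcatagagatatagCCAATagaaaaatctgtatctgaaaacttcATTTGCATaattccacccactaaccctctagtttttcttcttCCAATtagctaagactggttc
H1f4, chr17:41914275-41914424, + strand: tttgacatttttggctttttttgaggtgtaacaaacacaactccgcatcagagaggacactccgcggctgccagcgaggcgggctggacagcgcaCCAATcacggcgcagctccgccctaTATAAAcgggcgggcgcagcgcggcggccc
H3f3b, chr10:101757637-101757786, - strand: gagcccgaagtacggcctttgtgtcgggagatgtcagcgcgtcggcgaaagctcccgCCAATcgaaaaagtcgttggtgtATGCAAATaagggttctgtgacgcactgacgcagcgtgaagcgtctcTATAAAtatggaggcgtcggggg
In these windows H2az1 and Hist1h2ail1 held CCAAT boxes alone, and H1f4 a CCAAT box with a TATA box. The octamer was present in Hist1h2bq at -63 and in H3f3b at -70, counted from the annotated start.

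A promoter sequence was at hand for 23 of the 24 member genes, with 12 of them on chromosome 17, 4 on chromosome 10, 3 on chromosome 2 and the other 4 on chromosomes of their own. In the 250 bases before the start, the octamer was found in 8 of 23 members (34.8%), against 1.56% of all 33469 promoters. It was found in 5 of 7 H2B genes, 2 of 3 H2A genes, 1 of 4 replacement variants and none of 6 linker histone genes. CCAAT was found in 21 of 23 members (91.3%) against 34.0% of all promoters, and TATAAA in 9 of 23 (39.1%) against 12.9%. These matches describe the letters in the windows and do not show that a factor bound there.

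The 8 arrays had median signals of 7.95 to 7.98 on the log2 scale, which the normalization makes nearly equal in advance. The lowest correlation between any pair was 0.99 across probe sets, which are not independent replicates. Markers of the tissue were present, with mean log2 signals of 8.70 to 13.6 for 9 of 9 neuronal genes, 9.25 to 13.1 for 5 of 5 astrocyte genes and 8.88 to 11.7 for 5 of 5 microglial genes. None of these passed an unadjusted p of 0.05 between groups. Of 9 further marker lists, only the motor neuron gene Isl1 passed it, at -0.23. The sensory neuron genes Calca and Prph differed by -1.65 (SE 0.99) and -0.93 (SE 0.49) with overlap between the groups. Scn10a, the other gene of that list, differed by -0.00043 (SE 0.08). Signals of different probe sets are not on a common scale, so each probe set was compared only with itself between groups. In whole tissue, fewer cells of a type and less RNA per cell cannot be told apart.

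Among histone genes, no difference passed adjustment over all probe sets. The largest was in 1 of the pair of probe sets annotated to H2az1, higher with HDACI by 1.68 on the log2 scale, and the other 31 differed from vehicle by -0.16 to 0.18. At an unadjusted p under 0.01 in limma's moderated test, 1 of 32 histone probe sets was higher with HDACI and 0 were lower, against 0.681% and 0.616% of all probe sets. At an unadjusted p under 0.05, 3 were higher and 0 lower, against 2.88% and 3.82% of all probe sets. No histone probe set had 4 HDACI arrays wholly above or wholly below the 4 vehicle arrays, against 1.74% of all probe sets above and 2.82% below. Vehicle array 2 weighed on these counts, since without it 4 histone probe sets passed the unadjusted p of 0.01 and 6 had HDACI arrays wholly above the vehicle arrays that remained. Both probe sets of the identical Hist2h3c2 pair were among the 4 and among the 6. Without HDACI array 2 those counts were 2 and 2, and without HDACI array 3 the second was 5. Shares over all probe sets were not computed for these refits, and fewer arrays make separation of the groups easier by construction. After Benjamini-Hochberg adjustment over all 29214 probe sets no histone probe set passed, the lowest adjusted p being 0.716.

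**Figure D1:**
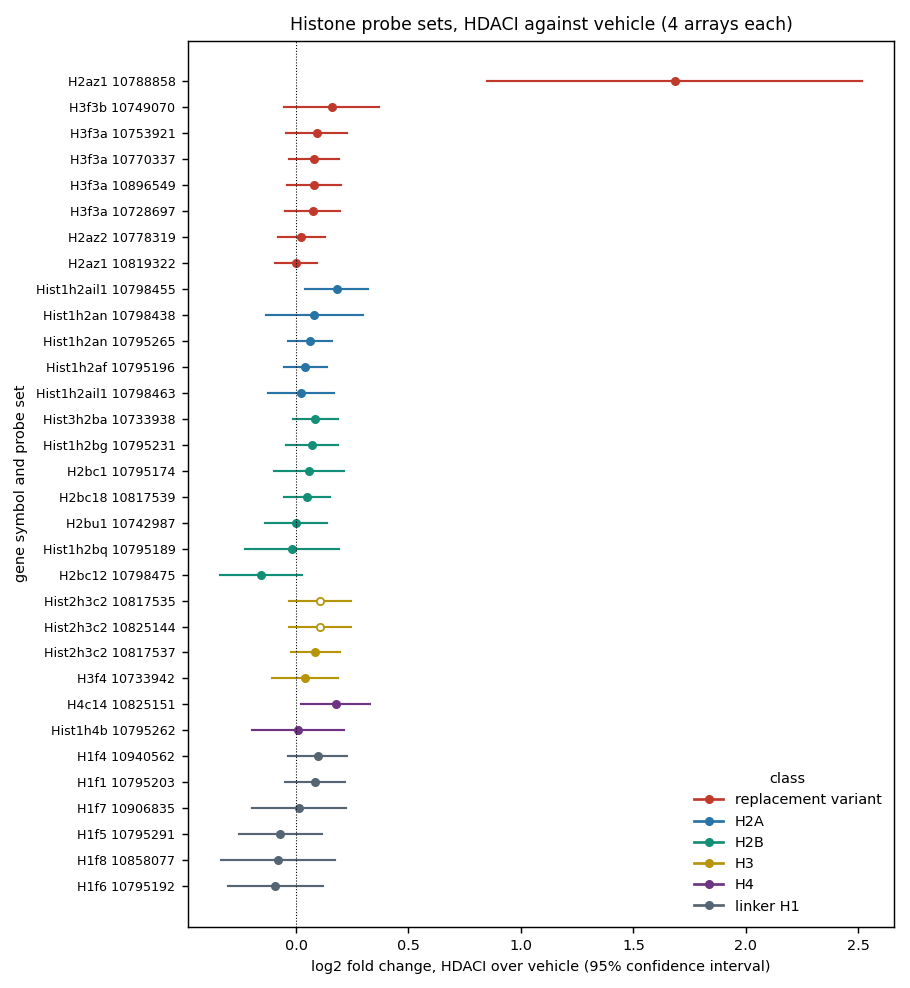
Log2 fold change of HDACI over vehicle (x axis) for each of the 32 histone probe sets (y axis, gene symbol and probe set), coloured by class, with 95% confidence intervals from limma and n = 4 arrays per group. Open circles mark the pair of Hist2h3c2 probe sets with identical values. H2az1 10788858 stands at 1.68, and the other 31 lie between -0.16 and 0.18.

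H2A.Z replaces H2A in nucleosomes beside transcription start sites and at enhancers, and it is encoded by H2az1 and H2az2. Probe set 10788858 of H2az1 had log2 signals of 11.01, 10.28, 10.96 and 11.05 on HDACI arrays 1 to 4, against 8.54, 10.36, 8.80 and 8.87 on vehicle arrays 1 to 4. HDACI arrays 1, 3 and 4 were high, vehicle arrays 1, 3 and 4 were low, and the arrays numbered 2 in both groups lay between them, with vehicle 2 slightly above HDACI 2. The means were 10.82 ± 0.37 with HDACI and 9.14 ± 0.83 with vehicle (SD, n = 4 each). The difference of 1.68 (SE 0.37, 95% confidence interval 0.85 to 2.52), or 3.21-fold, had a limma p of 0.00132 and an adjusted p of 0.716. An exact two-sided permutation test over the arrays gave p = 0.0571, where 4 against 4 arrays can reach no lower than 0.0286.

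Where in the genome the probes of 10788858 match, at H2az1 itself or at a copy of it, was not tested. Its difference ranked 2 among all 29214 probe sets by size. Its SD within groups, 0.64, was at the 99.7th percentile of all probe sets, whose median was 0.09. Without vehicle array 2 the difference was 2.09 and limma gave an adjusted p of 0.0468. With both arrays numbered 2 left out, a choice made after seeing the values and by those values, it was 2.27. Over the other alternatives tried, including every array left out in turn, it stayed between 1.48 and 2.09 and kept an unadjusted p under 0.01. The adjusted p in limma was 0.00083 with both arrays numbered 2 left out, and over the other alternatives it ran between 0.0468 and 0.969.

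The second H2az1 probe set, 10819322, did not share this pattern. Its log2 signals were 10.29, 10.23, 10.29 and 10.33 with HDACI, against 10.26, 10.31, 10.31 and 10.26 with vehicle. All 8 arrays lay within about 0.1 of each other and the groups overlapped throughout. The difference was 0.00 (SE 0.04, 95% confidence interval -0.09 to 0.09, adjusted p = 0.999 in limma). The fold changes of the H2az1 probe sets thus differed by 1.68 on the log2 scale (exact permutation p = 0.0571), a comparison made after their values had been seen. H2az2, the other H2A.Z gene, averaged 9.75 ± 0.05 with HDACI and 9.73 ± 0.05 with vehicle (SD, n = 4 each), a difference of 0.02 (SE 0.05).

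Tissue composition was examined beside this result, since the arrays numbered 2 stood apart for 10788858. Genes of leptomeningeal fibroblasts, the cells of the membranes around the cord, were measured for 4 of 5 listed. Their mean log2 signal was 8.60, 10.29, 9.01 and 8.93 on HDACI arrays 1 to 4, against 9.17, 9.63, 8.54 and 8.90 on vehicle arrays 1 to 4. It was highest on array 2 in each group. The mean over 3 sensory neuron genes was also highest on array 2 in each group. It was 7.10, 8.42, 7.85 and 6.95 on HDACI arrays, against 8.94, 9.37, 7.18 and 8.27 on vehicle arrays. HDACI 2 lay below vehicle 1 for this mean. Of these genes, Scn10a was instead lowest on array 2 in each group, at 6.18 with HDACI and 6.04 with vehicle. The mean over 4 endothelial genes was likewise highest on array 2 in each group. It read 9.24, 9.50, 9.38 and 9.35 on HDACI arrays, against 9.26, 9.36, 9.27 and 9.29 on vehicle arrays. Of these genes, Cldn5 was instead highest on HDACI array 3 (9.66) and vehicle array 4 (9.67). No other marker list had its mean highest on array 2 in both groups. The 4 leptomeningeal genes had mean log2 signals of 7.58 to 11.3 over the 8 arrays, and none passed an unadjusted p of 0.05 between groups. The part of these cell types in the H2az1 result was not tested.

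**Figure D2:**
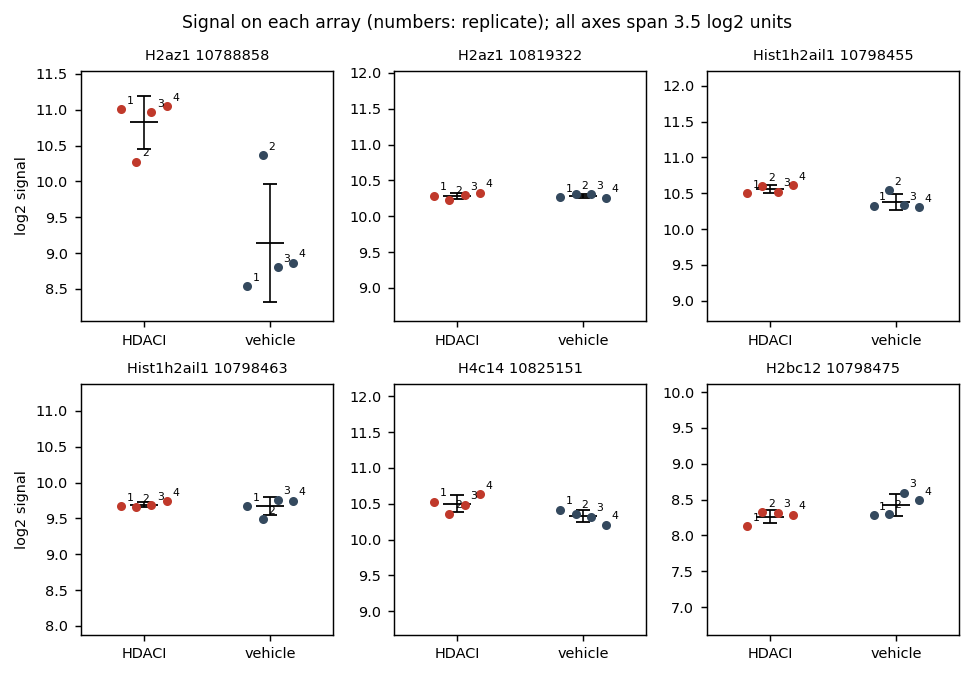
Log2 signal (y axis) of 6 histone probe sets on each HDACI array (red, left) and vehicle array (blue, right), with the replicate number beside each point and bars for mean ± SD, n = 4 each. For H2az1 10788858 the groups separate on arrays 1, 3 and 4 and meet on array 2, and the other 5 panels, drawn over the same span, show differences of 0.18 or less in size.

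H3.3, which replaces H3 at active genes and at telomeres, is encoded by H3f3a and H3f3b. H3f3a was read by 4 probe sets, whose differences were 0.07 to 0.09 with exact permutation p values of 0.143 to 0.200. Without vehicle array 4, the lowest of its group, they were 0.04 to 0.05. After centring, the 4 probe sets lay within about 0.05 of each other on every array, whereas the H2az1 pair lay up to 1.42 apart. In probe set 10770337 of H3f3a, the mean was 11.52 ± 0.06 with HDACI and 11.44 ± 0.06 with vehicle (SD, n = 4 each). For H3f3b, the arrays with HDACI read 11.05, 11.49, 11.09 and 11.25, against 11.11, 10.96, 11.05 and 11.11 with vehicle. HDACI array 2 was the highest of the 8 and HDACI arrays 1 and 3 lay among the vehicle values. The difference of 0.16 (SE 0.09) did not pass the test (adjusted p = 0.784 in limma, exact permutation p = 0.257). Without HDACI array 2 it was 0.07 (adjusted p = 0.938).

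Hist1h2ail1, a core H2A gene, was the next largest difference. Its probe set 10798455 read 10.50, 10.59, 10.52 and 10.62 with HDACI, against 10.33, 10.54, 10.33 and 10.30 with vehicle. All HDACI arrays lay above vehicle arrays 1, 3 and 4, and vehicle array 2 lay among the HDACI values. The difference was 0.18 (SE 0.06, 95% confidence interval 0.04 to 0.32, unadjusted limma p of 0.0174, adjusted p = 0.716, exact permutation p = 0.0857). Without vehicle array 2 it was 0.24, with an unadjusted limma p of 0.00107 and an adjusted p of 0.539. Its second probe set, 10798463, read 9.67, 9.66, 9.68 and 9.74 with HDACI, against 9.67, 9.49, 9.76 and 9.75 with vehicle. Here vehicle array 2 was the lowest of all, and the difference was 0.02 (SE 0.06). Over the 5 H2A probe sets, the differences ran between 0.02 and 0.18, all above 0, with 1 passing an unadjusted p of 0.05.

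H4c14, a core H4 gene, had log2 signals of 10.53, 10.36, 10.49 and 10.63 with HDACI, against 10.42, 10.36, 10.32 and 10.21 with vehicle. HDACI arrays 1, 3 and 4 were above every vehicle array, and HDACI array 2 lay among the vehicle values. The difference was 0.18 (SE 0.07, 95% confidence interval 0.02 to 0.33, unadjusted limma p of 0.0293, adjusted p = 0.723, exact permutation p = 0.0857). Without HDACI array 2 it was 0.22, with an unadjusted limma p of 0.00806 and an adjusted p of 0.870. The other H4 gene measured, Hist1h4b, differed by 0.01 (SE 0.09).

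Core H3 was read by 4 probe sets of Hist2h3c2 and H3f4, with differences of 0.04 to 0.11, none of which passed an unadjusted p of 0.05. The identical Hist2h3c2 probe sets 10817535 and 10825144 read 9.71, 9.82, 9.71 and 9.80 with HDACI, against 9.62, 9.81, 9.59 and 9.60 with vehicle. Vehicle array 2 again lay among the HDACI values and the other vehicle arrays below them all. The difference was 0.11 (SE 0.06, adjusted p = 0.778 in limma, exact permutation p = 0.143), and without vehicle array 2 it was 0.16, with an unadjusted limma p of 0.00972. The third probe set of this gene, 10817537, differed by 0.09 (SE 0.05, exact permutation p = 0.0571).

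The H2B genes showed no common direction, with 4 of 7 probe sets above 0 and 3 below. H2bc12 had the most negative difference of all histone probe sets, with signals of 8.13, 8.32, 8.32 and 8.29 with HDACI, against 8.28, 8.31, 8.60 and 8.49 with vehicle. Vehicle arrays 3 and 4 lay above every HDACI array, and vehicle arrays 1 and 2 among them. The difference of -0.16 (SE 0.08) did not pass the test (adjusted p = 0.765 in limma, exact permutation p = 0.257), and without vehicle array 3 it was -0.10. Outside the symbol rule, 3 probe sets that H2bc12 shares with other H2B genes differed by 0.09 to 0.11. Hist3h2ba differed by 0.09 (SE 0.04, exact permutation p = 0.0857). The remaining H2B genes differed by less, Hist1h2bg by 0.07, H2bc18 by 0.05, Hist1h2bq by -0.02 and H2bu1 by -0.0016. H2bc1, an H2B known from testis, differed by 0.06.

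Linker histones were split evenly, 3 of 6 probe sets above 0 and 3 below. Among the somatic linker genes, H1f4 averaged 11.18 ± 0.10 with HDACI and 11.09 ± 0.05 with vehicle (SD, n = 4 each), a difference of 0.10 (SE 0.06, exact permutation p = 0.114). H1f1 differed by 0.09 (SE 0.06) and H1f5 by -0.07 (SE 0.08). H1f0, the linker histone typical of cells that no longer divide, was not analysed here.

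The remaining linker genes are known from germ cells. H1f6, of testis, read 6.92, 7.05, 7.19 and 7.04 with HDACI, against 7.07, 7.02, 7.06 and 7.41 with vehicle, a difference of -0.09 (SE 0.09, exact permutation p = 0.514). H1f8, of oocytes, read 6.35, 6.19, 6.32 and 6.21 with HDACI, against 6.41, 6.05, 6.29 and 6.64 with vehicle, a difference of -0.08 (SE 0.11, exact permutation p = 0.571). In both genes vehicle array 4 was the highest of the 8 arrays and the remaining values of the groups were mixed. Without it the difference was -0.0019 for H1f6 and 0.02 for H1f8. H1f7, of testis, differed by 0.01. The 5 germline probe sets (these, H2bc1 and the H3 gene H3f4) had differences of -0.09 to 0.06.

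The histone probe sets that the symbol rule took leaned slightly upwards with HDACI, by amounts that single probe sets did not resolve. Of 32 probe sets, 26 had a difference above 0 (81.2%), with a median of 0.07, where 43.8% of all probe sets were above 0 and their median was -0.01. With the identical pair counted once, 25 of 31 were above 0. Of those 26, 23 did not pass an unadjusted p of 0.05. All 8 probe sets of replacement variants were above 0, the lowest by 0.00027, with a median of 0.08. H3f3a gave 4 of these 8 and H2az1 gave 2. Of the 16 replication-dependent core probe sets outside the germline 13 were above 0, with a median of 0.07. Of 14 histone probe sets outside the symbol rule, 5 were above 0 and 9 below. H2ax, Macroh2a1, Macroh2a2, H2aj and Cenpa were among the 9.

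Markers of several cell types lay above vehicle beside this lean. Astrocyte genes were above 0 in 5 of 5 probe sets (median 0.07), microglial genes in 5 of 5 (median 0.09), mural cell genes in 3 of 3 (median 0.10) and oligodendrocyte precursor genes in 2 of 2 (median 0.09). Oligodendrocyte and endothelial genes were above 0 in 3 of 4 probe sets each (median 0.04 in both), and leptomeningeal genes in 2 of 4 (median 0.08). Ependymal genes were above 0 in 1 of 3 (median -0.01) and blood cell genes in 1 of 3 (median -0.07). Dorsal cord neuron genes were above 0 in 3 of 9 (median -0.03). Sensory neuron genes were above 0 in 0 of 3 (median -0.93), though Scn10a among them differed by only -0.00043. The motor neuron gene Isl1 was below 0, at -0.23. Apart from Isl1, none of these passed an unadjusted p of 0.05. The part of these cell types in the lean was not tested.

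The lean was not shared by every HDACI array. The median deviation of the 32 probe sets from their own means was 0.02, 0.06, -0.01 and 0.07 on HDACI arrays 1 to 4, against -0.03, -0.0024, -0.03 and -0.08 on vehicle arrays 1 to 4. HDACI array 3 lay below vehicle array 2, so that the groups overlapped. On HDACI arrays 25, 23, 12 and 28 of the 32 probe sets were above their means, against 10, 15, 11 and 7 on vehicle arrays. Histone genes of a family are near copies of each other, and the deposited values do not show how far their probes share transcripts, so the probe sets are not independent measurements and no test was made over them. Excluding H2az1 10788858, the 95% confidence bounds of the 31 others lay between -0.34 and 0.37 on the log2 scale.

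**Figure D3:**
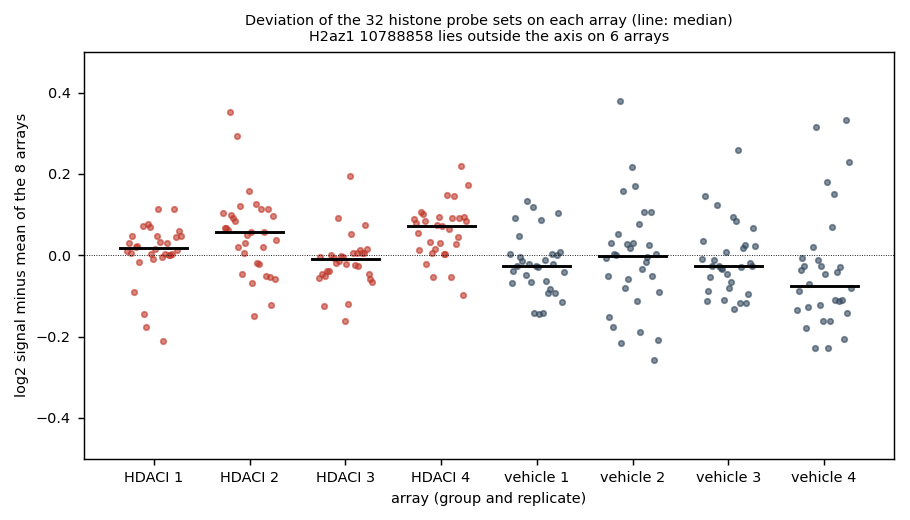
Log2 signal minus the mean of the 8 arrays (y axis) for each of the 32 histone probe sets (points) on each HDACI array (red, left) and vehicle array (blue, right), with the median as a line. The medians are 0.02, 0.06, -0.01 and 0.07 on HDACI arrays and -0.03, -0.0024, -0.03 and -0.08 on vehicle arrays. H2az1 10788858 falls beyond the axis on 6 arrays.

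A further 14 probe sets encode histones under other symbols, or several H2B genes at once, and are set beside the family here. None passed an unadjusted p of 0.05, 5 were above 0 and 9 below, and they lay between -0.13 and 0.11 with a median of -0.03. H2ax, the variant phosphorylated at DNA breaks, averaged 8.72 ± 0.11 with HDACI and 8.80 ± 0.18 with vehicle, a difference of -0.09. Macroh2a1, a variant with a large C-terminal domain, averaged 11.07 ± 0.05 with HDACI and 11.08 ± 0.07 with vehicle, a difference of -0.01. Macroh2a2 differed by -0.07 and H2aj by -0.10. Cenpa differed by -0.06, H2ac1 by -0.02, H2ac4 by -0.10, H2ac21 by -0.04 and H2ap by -0.13. H2ac25 differed by 0.07 and H2ab3 by 0.0016. The 3 probe sets shared by several H2B genes, H2bc12 among them, differed by 0.09 to 0.11. With these 14 added, the median over the histone probe sets was 0.05.

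Genes that make, process or carry histones were read against all probe sets, of which 43.8% were above 0 with a median of -0.01. Of the genes for histone mRNA synthesis and processing, 10 of 11 were measured by 10 probe sets, and all 10 were below 0, with a median of -0.03. Cpsf2, a subunit of the complex that cleaves histone pre-mRNA, had 8.98, 8.88, 8.89 and 8.98 with HDACI, against 9.06, 9.02, 9.06 and 9.07 with vehicle. The groups did not overlap, and the difference of -0.12 (SE 0.04) had an unadjusted limma p of 0.0215. At an unadjusted limma p under 0.05, 1 of these 10 probe sets was lower and 0 were higher, against 3.82% and 2.88% of all probe sets. Over all probe sets, 2.82% had HDACI arrays wholly below vehicle arrays. Slbp, which binds the stem loop of histone mRNAs, differed by -0.05 (SE 0.06), and Npat, the coactivator of histone genes in S phase, by -0.05.

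Of 20 histone chaperones listed, 16 were measured by 20 probe sets, 5 above 0 and 15 below, with a median of -0.02. At an unadjusted p under 0.01, 1 of the 20 was lower, against 0.616% of all probe sets, and 0 were higher. It was Anp32e, whose product in human and mouse cells removes H2A.Z from nucleosomes. Anp32e read 8.55, 8.58, 8.37 and 8.57 with HDACI, against 8.76, 8.84, 8.68 and 8.75 with vehicle. Every HDACI array lay below every vehicle array, and the difference was -0.24 (SE 0.06), with an unadjusted limma p of 0.00304 and an adjusted p of 0.716. Vps72, a chaperone that helps to deposit H2A.Z, differed by -0.02, and Hira, which deposits H3.3, by -0.0012.

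Supt16h, a subunit of the FACT complex that moves H2A and H2B during transcription, differed by -0.10 (SE 0.04, unadjusted limma p of 0.0419), with no overlap between the groups. Nap1l1, a carrier of H2A and H2B, differed by -0.11 (SE 0.05, unadjusted limma p of 0.0433). At an unadjusted limma p under 0.05, 3 of the 20 chaperone probe sets were lower and 0 higher, against 3.82% and 2.88% of all probe sets. Over all probe sets, 2.82% had HDACI arrays wholly below vehicle arrays. Genes of S phase and division gave 7 of 17 probe sets above 0 and 10 below, with a median of -0.02. That share above 0 and that median were close to those over all probe sets. At an unadjusted limma p under 0.05, 1 of the 17 was higher and 3 were lower, against 2.88% and 3.82% of all probe sets. The cyclin gene Ccne1 differed by -0.13, the helicase subunit Mcm7 by -0.18, the primase subunit Prim1 by -0.36 and the kinase gene Cdk1 by 0.17, with unadjusted limma p values of 0.0151 to 0.0386. For Ccne1 every HDACI array lay below every vehicle array, and for Mcm7, Prim1 and Cdk1 the groups overlapped. None of the 17 passed an unadjusted p of 0.01.

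**Figure D4:**
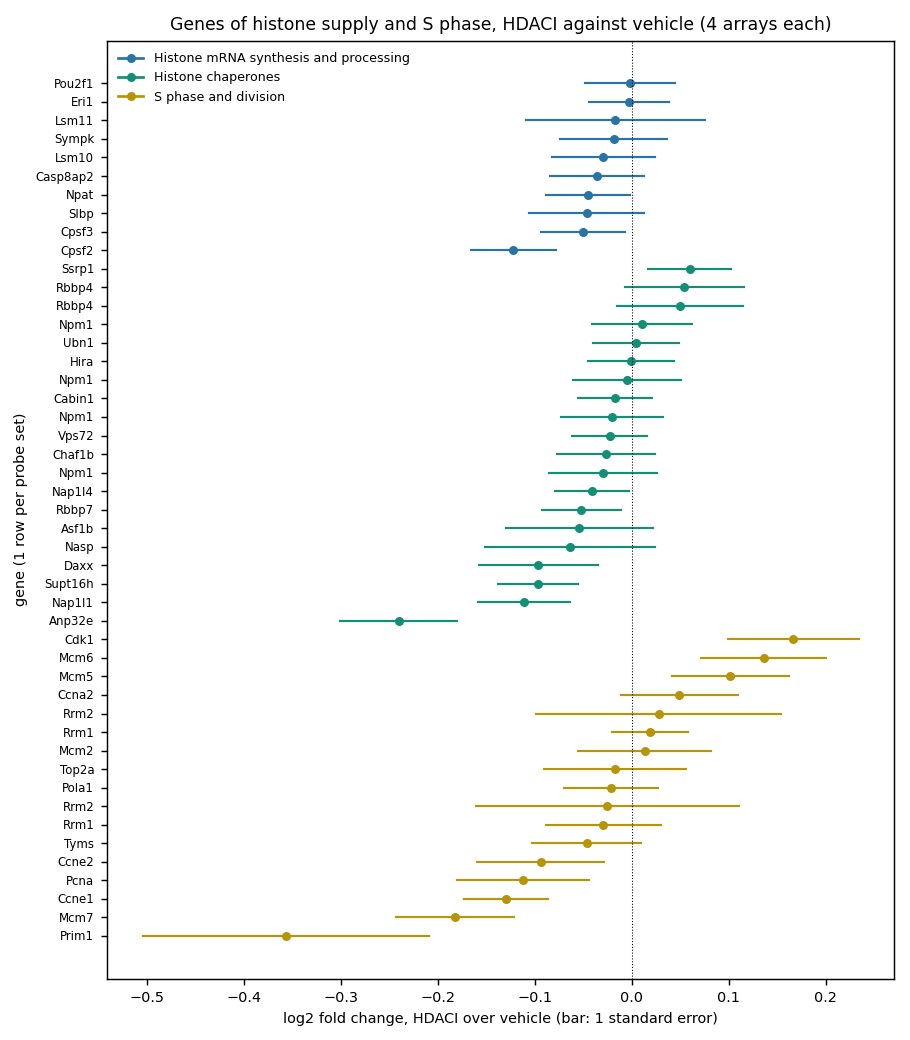
Log2 fold change of HDACI over vehicle (x axis) with 1 standard error for each probe set (y axis, gene symbol) of the genes for histone mRNA synthesis and processing (blue), histone chaperones (green) and S phase (yellow), n = 4 arrays per group. All 10 blue points lie below 0, and Anp32e at -0.24 is the one probe set with an unadjusted limma p under 0.01.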

How the data were processed

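RNA from dorsal ipsilateral spinal cord was measured on 8 arrays, 4 HDACI and 4 vehicle, and the labels gave each array its group and number. Deposited signals are log2 values. To make them, the authors used oligo and RMA, which corrects background, sets the arrays to a common distribution and summarises each probe set. RMA makes total signal equal between arrays, so a change shared by all genes would not be seen. The version of oligo is not given in the sources used here. There were 0 columns of values without a sample.

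All 29214 probe sets entered 1 moderated linear model (limma 3.58.1, R 4.3.3), without filter or covariate, and p values are two-sided with Benjamini-Hochberg adjustment over all probe sets. Exact permutation tests over the 8 arrays were added for the named probe sets. The scripts were tested on simulated data. Precision is limited by the number of arrays, and a difference that did not pass is not shown to be absent. The annotation symbols of all 32 histone probe sets were matched by Entrez number to the RefSeq table of GRCr8, the source of the promoter sequences also. Array values came without probe sequences, so signals of near-identical histone copies could not be separated.

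Values on every array were given for each histone probe set with an unadjusted p under 0.05 or without overlap between groups, for the 3 largest rises and falls, and for H3f3b, the identical Hist2h3c2 pair and the second probe sets of H2az1 and Hist1h2ail1, these last chosen after their values were seen. Replacement variants and linker histones were given by their means or differences, and others by difference. The members, the lists of other genes and the rules were chosen with earlier results of these data known.

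As alternatives, the variance was moderated robustly with a trend or not at all, and the fit was repeated with probe sets above the median signal only, further quantile normalization, centring on array medians, identical probe sets once, array quality weights, a replicate block, updated symbols, and each array left out in turn. Leaving out both arrays numbered 2 and adding further histone probe sets were chosen after seeing the data.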

Additional observations from a re-analysis of the deposited data

Results flagged for a closer look

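Within groups of 4 arrays, 7 of 64 groups of histone values held an array far from the other 3, by the ratio of its gap to the whole range, with 0.829 as the 95% critical value. Chance gives about 1 in 20 such groups, and the identical Hist2h3c2 pair counts as 2 of the 7. HDACI array 2 was the lowest of its group for H2az1 10788858 (ratio 0.885), at 10.28 where the nearest HDACI array read 10.96. Vehicle array 2 was the highest of its group for Hist1h2ail1 10798455 (ratio 0.878) and for Hist2h3c2 10817535 and 10825144 (ratio 0.883 each). Vehicle array 4 was the lowest for H3f3a 10728697 (ratio 0.904), at 11.66 where the nearest vehicle array read 11.79, and for H2bc18 (ratio 0.837). Vehicle array 4 was the highest for H1f6 (ratio 0.851). What set these arrays apart was not tested.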

How the results depend on the processing

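The number of histone probe sets higher with HDACI at an unadjusted limma p under 0.01, 1 as reported, was 2 with further quantile normalization, with array quality weights and with both arrays numbered 2 left out, and 1 to 4 as arrays were left out in turn, reaching 4 without vehicle replicate 2 and 2 without HDACI replicate 2. The number with HDACI arrays wholly above vehicle arrays, 0 as reported, was 1 with further quantile normalization, 7 with both arrays numbered 2 left out, and 0 to 6 with single arrays left out, reaching 6 without vehicle replicate 2, 5 without HDACI replicate 3, 2 without HDACI replicate 2 and 1 without vehicle replicate 1 or 3. Fewer arrays make separation of the groups easier by construction, and shares over all probe sets were not computed for these settings. No count of lower probe sets moved from 0, and the median difference stayed between 0.05 and 0.08.

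Among single probe sets, 470 refits kept their direction and side of the threshold, 7 passed an unadjusted p of 0.01 where the reported fit did not, and 27 changed sign, all of probe sets whose reported difference was between -0.08 and 0.06. H2bu1 was 0.011 with further quantile normalization, H2az1 10819322 was -0.0010 with array centring, and with both arrays numbered 2 left out H3f4 was -0.018, Hist1h2ail1 10798463 -0.026 and H1f7 -0.032. With single arrays left out, the lowest and highest differences were -0.098 and 0.031 for Hist1h2bq, -0.054 and 0.092 for H1f7, -0.0011 and 0.044 for H2az2, -0.044 and 0.083 for Hist1h4b, -0.040 and 0.040 for H2bu1, -0.015 and 0.018 for H2az1 10819322, -0.0031 and 0.096 for H3f4, -0.0024 and 0.11 for H2bc1, -0.036 and 0.055 for Hist1h2ail1 10798463, and -0.18 and 0.018 for H1f8. The cause was not tested.

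The labels number replicates 1 to 4 in both groups. Same-numbered arrays deviated together with correlations of -0.21, 0.23, 0.06 and 0.0016 across probe sets. Of 4 HDACI arrays, 0 correlated best with their own number, though for HDACI array 2 the best was 0.26, with vehicle array 1. Such correlations cannot show whether same-numbered arrays were paired or handled together, which was not tested. With a replicate block, 188 probe sets were higher and 117 lower at an unadjusted p under 0.01, against 199 and 180 without it, and the histone count stayed at 1 higher and 0 lower. H2az1 10788858 then had an unadjusted limma p of 0.00472 and an adjusted p of 0.861.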
